A study of Mus musculus with 16 samples.

Results

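The genes described here encode the RNA splicing factor families. These are the SR proteins (symbols starting with Srsf), the heterogeneous nuclear ribonucleoproteins or hnRNPs (Hnrnp), and proteins of the small nuclear ribonucleoproteins or snRNPs (Snrp). They also include the U1-associated Luc7-like proteins (Luc7l), the U2 subunits (Sf3a, Sf3b) and the U2 auxiliary factors (U2af). The others are the pre-mRNA processing factors (Prpf), the RBMX proteins (Rbmx), and the kinases Clk1, Clk2, Clk3 and Clk4. Members were all protein-coding genes of the count table with such a symbol, and 6 processed pseudogenes were left out. This gave 79 members among 21921 protein-coding genes and 54752 gene identifiers: 20 Hnrnp, 13 Prpf, 12 Snrp, 11 Srsf, 6 Sf3b, 4 Clk, 4 Rbmx, 3 Luc7l, 3 Sf3a and 3 U2af genes. The rule itself used symbols and no measured value, but the families it names were chosen with earlier results of these data known. All but 1 passed the filter on low counts, so 78 were tested; the exception, Rbmxl2, a retrogene known from the testis, had no read in any library.

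RNA was sequenced from inguinal white adipose tissue (iWAT), a subcutaneous fat depot, of mice aged 90 days with strain label C57BL/6 (C57BL/6J in the study's methods) and labelled female. The 16 libraries fell into 4 genotypes with 4 libraries each, and p-values measure the spread between these libraries. WT mice carried neither allele. In Lepob/+ mice 1 of the gene copies of Lep, which encodes the fat-derived hormone leptin, was the ob mutant, in every cell. SOD1-G93A mice carried many copies of a human SOD1 transgene with an amyotrophic lateral sclerosis mutation under its own human promoter. SOD1-G93A Lepob/+ mice carried both. The study asked what a lower leptin dose changes in the fat of the transgenic animals. The transgene is human and the ob mutation is a premature stop, so gene-level mouse counts of Sod1 and Lep did not check the genotype labels. Libraries held 36795376 to 61886313 counts assigned to genes.

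A spliceosome assembles anew on each intron. U1 snRNP binds the 5′ splice site, the U2AF proteins bind the 3′ splice site and U2 snRNP binds the branch point, after which the U4/U6.U5 tri-snRNP, which holds several Prpf proteins, joins and the complex is activated. SR proteins mostly favour the use of exons and hnRNPs often oppose it, and the Clk kinases phosphorylate SR proteins. These genes are active in all cell types, and dividing and activated lymphocytes are known to hold much spliceosome RNA. In bulk tissue, a change in the number of cells of a type and a change of RNA per cell cannot be told apart, and gene-level counts say nothing of which exons were joined.

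Some libraries stood apart. All 14 mature adipocyte genes checked (Adipoq, Plin1, Lep and others) were at 95.0 CPM or more in every library and did not go against the tissue label. CPM are depth-scaled counts after TMM, a correction of each library for its composition, and libraries are named by genotype and replicate number. A lymph node score, the mean log2 CPM of 12 lymph node stroma and high endothelial venule genes, split the libraries into 6 at 4.05 to 4.69 (WT 1 and 2, Lepob/+ 3, SOD1-G93A 1, 2 and 4) and 10 at −0.81 to 0.07. They are called lymph-node-rich and lymph-node-poor below; inguinal fat encloses a lymph node. The summed T cell list was 1085 to 2183 CPM in the rich libraries and 25.5 to 61.0 CPM in the poor libraries, with no overlap. No SOD1-G93A Lepob/+ library was rich, against 3 of 4 SOD1-G93A libraries, so this genotype comparison is also a comparison of lymph node content. Lepob/+ 4 held skeletal muscle transcripts at 252791 summed CPM over 16 genes, WT 3 held 6560, and the others held 58.1 to 431. The library labelled SOD1-G93A Lepob/+ 3 had no Xist count and 1756 counts of 4 Y-linked genes, whereas the other 15 libraries had at least 11895 Xist counts and no Y-linked count.

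The members were well expressed and among the steadier genes. Of the 79, 74 were above 10 CPM in every library. The highest library was 1.63-fold above the lowest for the median member, against 2.88-fold for the median of all 19736 genes kept. Of the 77 members with counts in every library, 61 stayed under a 2-fold spread, where 28.3% of all genes kept did. Compared per kilobase of exon, the highest levels were those of Hnrnpa1 (73.6 CPM per kb), an hnRNP that shuttles between nucleus and cytoplasm, and Srsf5 (73.3), an SR protein. Other families were led by Snrpb (51.8), an Sm ring protein, U2af2 (35.7), the large U2AF subunit, Sf3b2 (30.8), Prpf8 (26.8), the large scaffold at the spliceosome's centre, Clk1 (19.0), Rbmxl1 (16.8), Sf3a2 (15.6) and Luc7l2 (12.95). Per kilobase, the lowest members of their families were Srsf12 (0.105), Hnrnpr (2.90), Prpf3 (3.97), Snrpc (4.84) and U2af1l4 (5.03). The others were Luc7l (7.57), Clk3 (8.66), Sf3a1 (9.11), Sf3b3 (10.1) and, at 0, Rbmxl2. These ranks depend on the exon length used. Hnrnpr, with 22199 exon bases, was nearly level with Hnrnpll (2.91, 11677 bases). In mean CPM over all libraries, Hnrnpr (64.4) was above Hnrnpll (33.95), and Snrpc (31.6) was above Snrpn (19.8). Srsf5 was the steadiest: it was 279 ± 4.74 CPM in WT, 292 ± 9.75 in Lepob/+, 300.2 ± 12.3 in SOD1-G93A and 297 ± 16.8 in SOD1-G93A Lepob/+ (mean ± SD, n = 4 each).

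**Figure D1:**
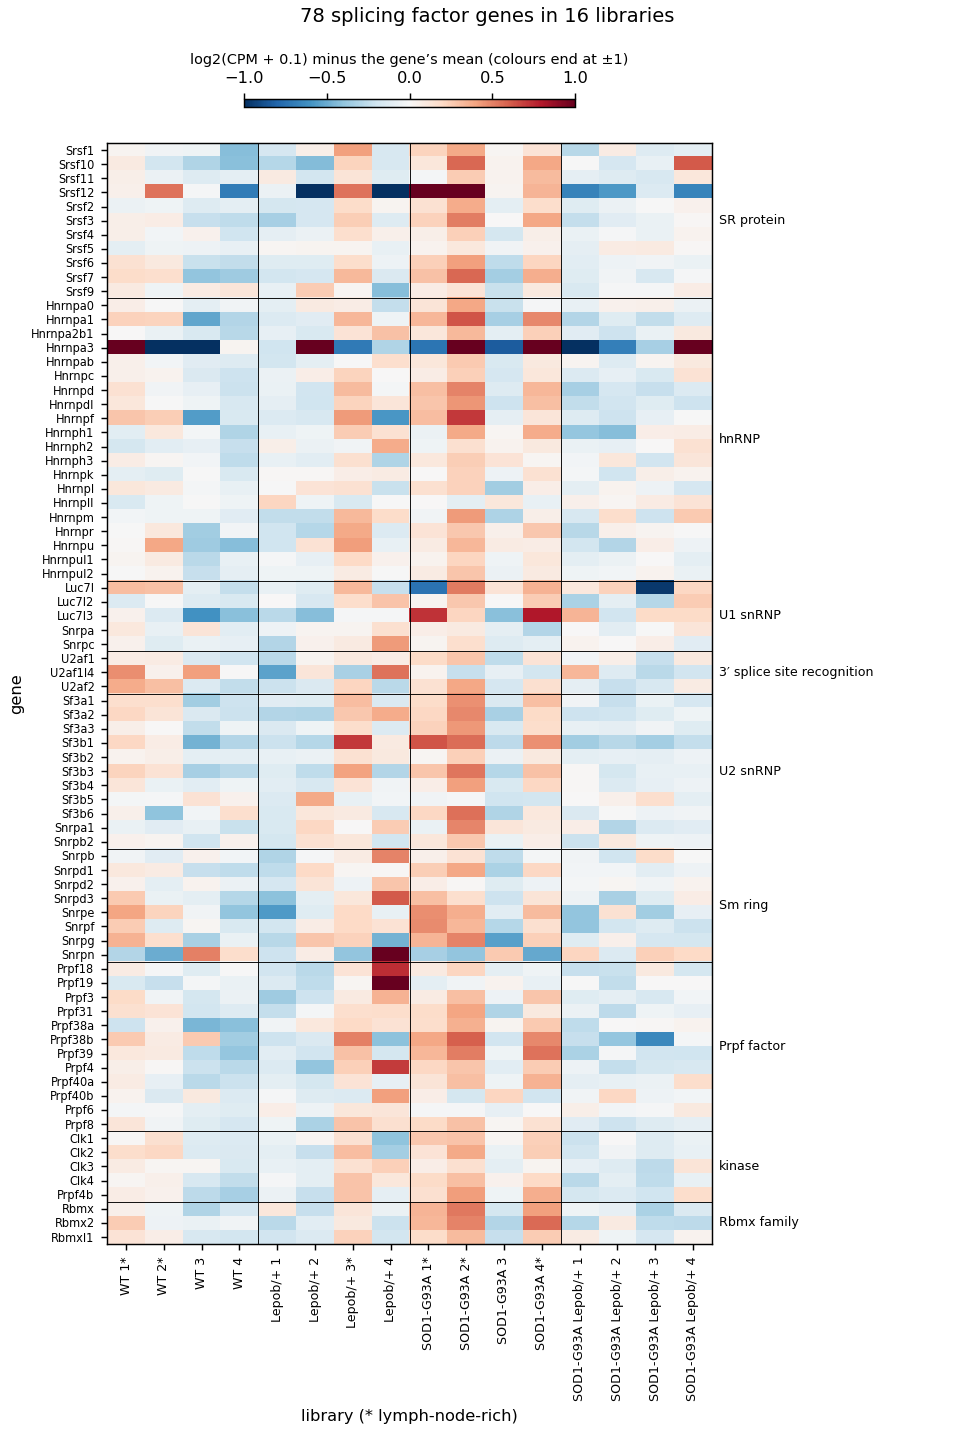
Each of the 78 tested members (rows, grouped by role) in each of the 16 libraries (columns, ordered by genotype, lymph-node-rich libraries starred). Colour is log2(CPM + 0.1) minus the gene's own mean, with colours ending at ±1. The reddest columns are lymph-node-rich, led by SOD1-G93A 2, and single rows with strong colours are Hnrnpa3, Srsf12, Luc7l, Snrpn and Prpf19.

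Across genotypes, no member passed an adjusted p of 0.05 in any comparison by edgeR's quasi-likelihood test, and neither did any other gene (0.0% of 19736 in each of the 5 comparisons, the interaction included). What could be described was a small shift of many members. In SOD1-G93A against WT, 72 of 78 members lay above 0 and the median log2 difference was 0.19, where 53.0% of all genes were higher with a median of 0.02. The study had reported RNA splicing among its top processes for this comparison from the same libraries, so the shift is not independent of that report. In SOD1-G93A Lepob/+ against SOD1-G93A only 10 of 78 were higher, with a median of −0.22 against 0.00 for all genes. Lepob/+ against WT gave a median of 0.06 (58 of 78 higher) against 0.03 for all genes, but this median was −0.02 without Lepob/+ 3 and −0.05 with limma voom, so its direction was not stable. SOD1-G93A Lepob/+ against Lepob/+ gave −0.06 (11 of 78 higher) against −0.06. These comparisons share libraries and are not independent of each other. The red blood cell list moved with the genotypes too: its 5 genes were all lower in SOD1-G93A than in WT (median −1.06) and all higher in SOD1-G93A Lepob/+ than in SOD1-G93A (median 1.08), each at an unadjusted p below 0.05 and none called by edgeR, and its part in the members' shifts was not tested.

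At an unadjusted p below 0.05, 11 members were higher and none lower in SOD1-G93A than in WT, where 1.64% of all genes were higher and 0.917% lower. In SOD1-G93A Lepob/+ against SOD1-G93A, 17 members were lower and none higher, where 12.3% of all genes were lower and 4.19% higher. Lepob/+ against WT had 2 higher members and none lower (all genes 3.56% and 0.811%). SOD1-G93A Lepob/+ against Lepob/+ had 1 lower member, Clk4, and none higher (all genes 6.28% and 1.96%). The interaction, which asks whether the transgene difference depends on the ob allele, had 14 members with a negative value and none with a positive one (all genes 5.82% and 2.16%), with a median of −0.25 against −0.09. Without Lepob/+ 4 and SOD1-G93A Lepob/+ 3, the medians were 0.18 for SOD1-G93A against WT, −0.22 for SOD1-G93A Lepob/+ against SOD1-G93A and 0.03 for Lepob/+ against WT.

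Which members were called depended on the test in SOD1-G93A Lepob/+ against SOD1-G93A. DESeq2 on all libraries called 2 members (595 of all 19736 genes), and DESeq2 on the 8 compared libraries called 7 (1546 of 18506 genes). Both counts were near the share of all genes. The count was 36 (6254 of 19736 genes) with limma voom and quality weights, which trust some libraries less than others. In the other genotype comparisons and the interaction these methods called no member. With the lymph node score added to the edgeR model, the median for SOD1-G93A Lepob/+ against SOD1-G93A was −0.016 with 30 of 78 members higher. Over all genes it was −0.046, with 8141 of 19736 higher, and no gene was called. The medians with the score were 0.12 for SOD1-G93A against WT (68 of 78 higher), 0.10 for Lepob/+ against WT (68 higher) and −0.03 for SOD1-G93A Lepob/+ against Lepob/+ (35 higher). Over all 19736 genes they were 0.04 (11381 higher), 0.04 (11099 higher) and −0.03 (9015 higher). The interaction had a median of −0.12 with the score, and 7 members had a negative value at an unadjusted p below 0.05. Over all genes its median was −0.07, and 732 of 19736 genes had a negative value at that threshold.

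**Figure D2:**
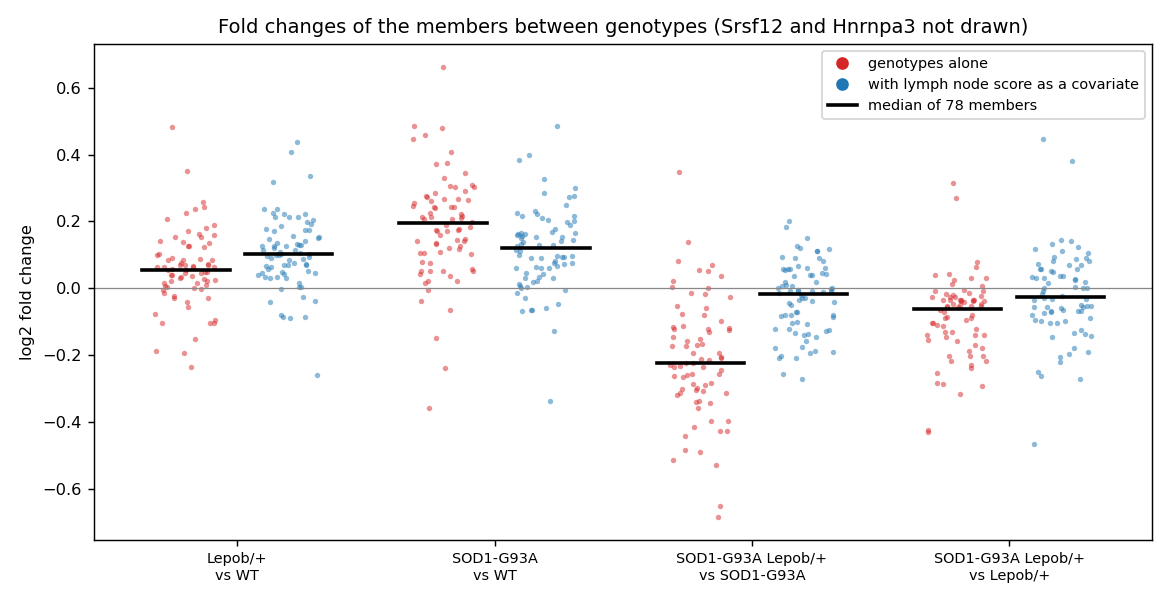
Log2 fold changes of the members (points, vertical axis) in the 4 genotype comparisons, from the fit of genotypes alone (red) and with the lymph node score as a covariate (blue); black bars are the medians of all 78 members, and Srsf12 and Hnrnpa3 are not drawn. The median of SOD1-G93A Lepob/+ against SOD1-G93A moved from −0.22 to −0.016 with the score, and that of SOD1-G93A against WT from 0.19 to 0.12.

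By lymph node content members were called, and so were 6299 of all 19736 genes. The mean log2 CPM of the 78 members was 5.94 to 6.28 in the 6 rich libraries and 5.75 to 5.96 in the 10 poor libraries, and only the muscle-rich Lepob/+ 4 among the poor libraries reached above the lowest rich library, WT 2. In edgeR with the genotypes in the model, the score was associated with 36 members that rose and 1 that fell at an adjusted p below 0.05, where 17.7% of all genes rose and 14.2% fell. The slope is given as the log2 difference over the 4.87 units that separate the medians of rich and poor libraries. Its median was 0.25 over the members (70 of 78 above 0) and −0.04 over all genes (46.9% above 0). Without SOD1-G93A 3, the only poor library of its genotype, the count of called members fell to 18, and without Lepob/+ 4 it was 51. Counts over all genes in these fits are not given here. The proliferating cell list also rose with the score (8 of 13 genes called) and the mature adipocyte list fell (6 of 14 called), and the part of either in the members' slopes was not tested.

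In 13 members all 6 rich libraries were above all 10 poor libraries, and in 1 member all were below, where 11.2% and 4.23% of all genes did so. The 13 were Srsf3, Srsf6, Srsf7, Srsf12, Hnrnpa1, Hnrnpf, Sf3a1, Sf3a3, Sf3b3, Snrpe, U2af2, Prpf39 and Clk2. For Srsf12, with 237 counts over all libraries, the lowest rich library was at 0.248 CPM and the highest poor one at 0.242, so its split is uncertain. Each role held called members that rose, where 17.7% of all genes rose with the score and 14.2% fell. They were 4 of 11 SR proteins, 9 of 20 hnRNPs, 6 of 11 U2 proteins and 3 of 8 Sm ring proteins beside the 1 that fell. The others were 5 of 12 Prpf factors, 3 of 5 kinases, 2 of 3 U2AF proteins and 3 of 3 tested Rbmx genes. Of the U1 proteins 1 of 5 rose, which is near the share of all genes. As grouped here, the 5 U1 genes had the smallest median slope (0.12) and the 3 tested Rbmx genes the largest (0.38). The U1-associated Prpf39 and Prpf40b were counted with the Prpf factors.

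**Figure D3:**
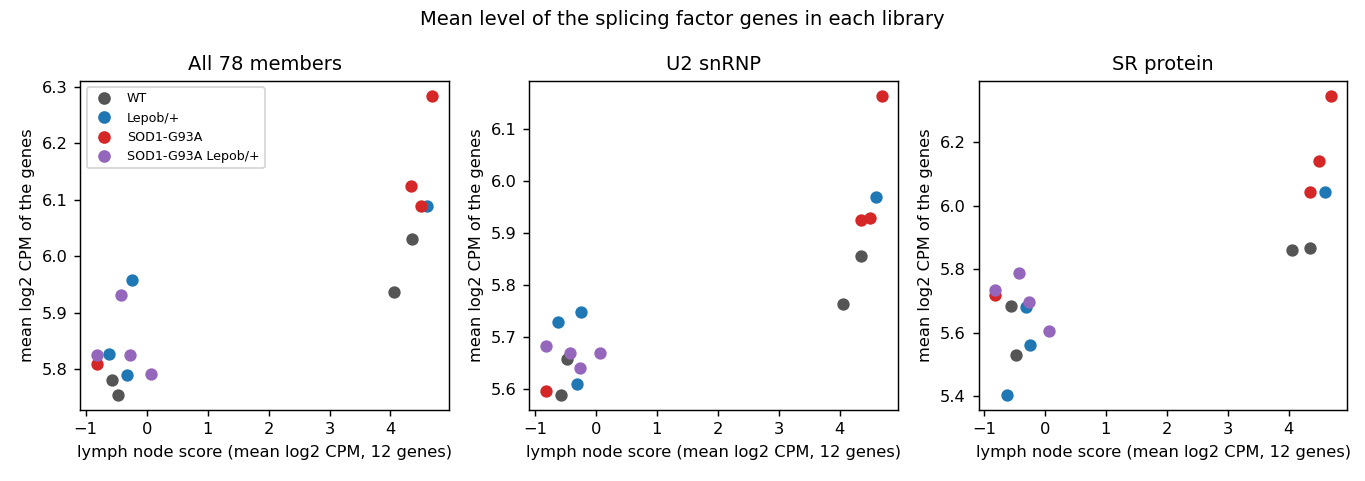
Mean log2 CPM (vertical axis) of all 78 tested members, of the 11 U2 snRNP genes and of the 11 SR protein genes in each library, against the lymph node score (horizontal axis); 1 point is 1 library, coloured by genotype. The 6 libraries on the right lie higher, and within them the 3 SOD1-G93A libraries include the highest, SOD1-G93A 2 at 6.28 for all members.

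To show where transcription of members called with the score starts, the stretches upstream of the 4 with the smallest p among those that rose, and of the 1 that fell, are printed 5′ to 3′ on the gene's strand (RefSeq start sites, build GRCm38.p6). Exons annotated in either direction were trimmed away. Capitals mark matches, on either strand, to the letters of 7 motifs: CCGGAAG for ETS factors, GCGCATGC for NRF1, AAGATGG for YY1, TGACGTCA for the cyclic AMP response element (CRE), CCAAT for the CCAAT box, CACGTG for the E-box and TATAAA for the TATA box. Srsf7 is at chr17:80207308-80207459 (minus strand), Sf3b3 at chr8:110846813-110847023 (minus), Sf3b1 at chr1:55027482-55027728 (minus), Hnrnpa1 at chr15:103240147-103240396 (plus) and Snrpn, whose most 3′ start of 4 is used, at chr7:60005200-60005449 (minus).
Srsf7: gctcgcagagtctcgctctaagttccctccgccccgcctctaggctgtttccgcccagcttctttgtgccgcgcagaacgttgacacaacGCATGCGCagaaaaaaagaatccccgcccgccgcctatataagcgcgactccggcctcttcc
Sf3b3: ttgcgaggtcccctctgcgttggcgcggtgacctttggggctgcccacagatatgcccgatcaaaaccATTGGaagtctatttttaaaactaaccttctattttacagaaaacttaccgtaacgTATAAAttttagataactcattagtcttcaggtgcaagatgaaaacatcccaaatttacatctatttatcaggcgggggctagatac
Sf3b1: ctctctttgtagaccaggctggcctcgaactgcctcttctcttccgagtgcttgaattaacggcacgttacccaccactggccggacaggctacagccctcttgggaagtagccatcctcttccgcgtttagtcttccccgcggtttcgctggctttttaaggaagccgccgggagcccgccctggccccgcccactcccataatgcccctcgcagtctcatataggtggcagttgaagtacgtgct
Hnrnpa1: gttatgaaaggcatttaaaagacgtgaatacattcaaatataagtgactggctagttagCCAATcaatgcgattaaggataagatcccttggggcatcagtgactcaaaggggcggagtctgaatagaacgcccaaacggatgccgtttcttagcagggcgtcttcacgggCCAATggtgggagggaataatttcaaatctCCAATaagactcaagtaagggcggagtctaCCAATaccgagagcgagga
Snrpn: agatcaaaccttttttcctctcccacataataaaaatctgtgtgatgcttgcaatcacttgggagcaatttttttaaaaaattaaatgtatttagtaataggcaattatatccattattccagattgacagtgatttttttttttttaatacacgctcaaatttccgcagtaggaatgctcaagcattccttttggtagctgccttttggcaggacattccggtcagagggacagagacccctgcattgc

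The Srsf7 stretch holds an NRF1 match 64 bases before the start, Hnrnpa1 holds 4 CCAAT matches, and Sf3b3 holds a CCAAT match and a TATAAA match 96 bases before the start. Sf3b1 and Snrpn hold none of these letters. The GC content was 60.5% for Srsf7, 58.7% for Sf3b1, 46.0% for Hnrnpa1, 41.7% for Sf3b3 and 36.8% for Snrpn. Over the 90 upstream windows of 250 bases that matched 68 members by symbol, the median GC content was 60.4%, against 52.4% over all 32851 windows. The ETS letters occurred in 26.7% of the member windows and 6.91% of all windows, CCAAT in 46.7% and 33.8%, the E-box in 11.1% and 6.02%, NRF1 in 4.44% and 2.26%, CRE in 3.33% and 1.55%, TATAAA in 7.78% and 12.4%, and YY1 in 1.11% and 4.49%. A match is a string of letters and not a measured binding site.

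Among the SR proteins, which bind exonic enhancers, Srsf7 had the smallest p of all members for the score. Its level was 81.3, 80.3, 54.4 and 55.7 CPM in WT 1 to 4, and 62.9, 63.5, 89.6 and 64.4 CPM in Lepob/+ 1 to 4. It was 87.3, 106, 56.4 and 91.7 CPM in SOD1-G93A 1 to 4, and 65.8, 69.7, 63.8 and 70.7 CPM in SOD1-G93A Lepob/+ 1 to 4. All genotypes overlapped, while the 6 rich libraries (80.3 to 106) lay above the 10 poor ones (54.4 to 70.7). The slope was 0.59 ± 0.07 (log2 difference ± SE, adjusted p = 2.93e-05 by edgeR). Srsf3, the smallest SR protein, was 54.3, 55.1, 44.5 and 43.8 CPM in WT, 41.4, 46.5, 61.9 and 47.8 in Lepob/+, 61.3, 74.4, 52.2 and 68.4 in SOD1-G93A, and 44.2, 48.2, 49.8 and 52.5 in SOD1-G93A Lepob/+. It was 0.37 ± 0.14 higher in SOD1-G93A than in WT on the log2 scale, with an adjusted p of 0.998 by edgeR. It also rose with the score (slope 0.36 ± 0.07, adjusted p = 0.0027). Srsf6 and Srsf1 rose as well (slopes 0.38 and 0.29, adjusted p 0.00116 and 0.0349 by edgeR). Srsf12, a little expressed family member, was at 0 to 0.389 CPM in 14 libraries and at 1.22 and 1.31 CPM in SOD1-G93A 1 and 2, and its slope of 1.52 ± 0.57 was not called (adjusted p = 0.056).

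Of the hnRNPs, all 20 had a fold change above 0 in SOD1-G93A against WT and 19 of 20 one below 0 in SOD1-G93A Lepob/+ against SOD1-G93A, with none called. Hnrnpa1 was 266, 264, 157 and 185 CPM in WT, 206, 209, 285 and 219.7 in Lepob/+, 284, 349, 179.7 and 316 in SOD1-G93A, and 184, 208, 191 and 207 in SOD1-G93A Lepob/+. The rich libraries stood at 264 or above and the poor ones at 219.7 or below, with a slope of 0.61 ± 0.09 (adjusted p = 0.000193). Hnrnpd, also known as AUF1, a protein of AU-rich RNA elements, had the smallest p in SOD1-G93A Lepob/+ against SOD1-G93A: 87.3, 99.99, 64.6 and 89.0 CPM in SOD1-G93A against 56.3, 63.0, 60.2 and 64.4 in the double mutant. The highest double mutant library stayed just under SOD1-G93A 3, the poor library of that genotype. The share of all genes with such a split is not given here. The difference was −0.48 ± 0.14 (adjusted p = 0.261 by edgeR), and DESeq2 on all libraries gave an adjusted p of 0.0451. With the lymph node score in the edgeR model it was −0.21 ± 0.10 (adjusted p = 1). Hnrnph2, a protein of G-rich RNA motifs, was 68.3 to 75.6 CPM in WT and 77.1 to 104 in Lepob/+. These ranges did not overlap, again without a share of all genes beside them. The difference was 0.24 ± 0.11 (adjusted p = 1 by edgeR), and 0.12 without the muscle-rich Lepob/+ 4, which held the highest value. Hnrnpll, an RNA-binding regulator of Cd45 exons in lymphocytes, had a slope of −0.14 ± 0.07 (adjusted p = 0.125), and Hnrnpr, the lowest hnRNP per kilobase, rose (0.30 ± 0.09, adjusted p = 0.0246).

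Hnrnpa3, a close relative of Hnrnpa1, was the most variable member but for Srsf12, and is described because of its values. It was 104, 14.5, 9.71 and 32.2 CPM in WT, 27.5, 86.9, 19.3 and 25.6 in Lepob/+, 19.0, 123, 17.7 and 109.8 in SOD1-G93A, and 8.66, 19.6, 24.99 and 87.8 in SOD1-G93A Lepob/+. Every genotype thus held 1 or 2 libraries at 86.9 CPM or more and the others at 32.2 or less, and of the 5 high libraries 3 were lymph-node-rich. Neither genotype nor score was called. Reads that could not be placed uniquely were not counted, and Hnrnpa3 and Hnrnpa1 have many retrocopies, so the counts of both are uncertain.

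**Figure D4:**
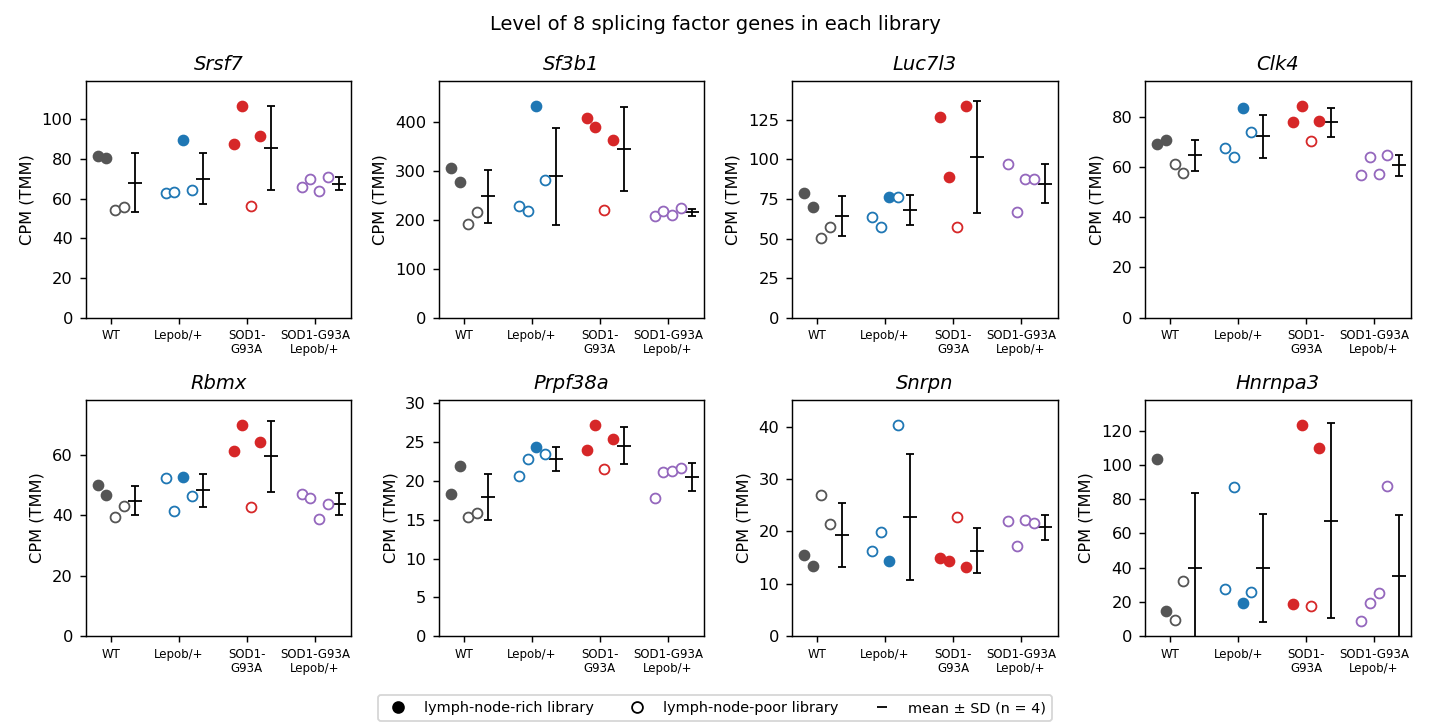
CPM (vertical axis, from 0) of 8 members in each library by genotype: filled points are lymph-node-rich and open points lymph-node-poor libraries, and black bars are the mean ± SD of the 4 libraries, cut off at the frame. Filled points lie above open ones for Srsf7 and below them for Snrpn, while Hnrnpa3 has high and low libraries in every genotype.

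Among the U1 proteins, which read the 5′ splice site, Luc7l3 had the largest difference between SOD1-G93A and WT of this group. It was 79.0, 69.7, 50.3 and 57.5 CPM in WT and 126, 89.0, 57.3 and 133 CPM in SOD1-G93A, a difference of 0.66 ± 0.23 with overlap (adjusted p = 0.998 by edgeR). It was 63.4, 57.0, 76.0 and 76.3 CPM in Lepob/+ and 96.8, 67.0, 87.6 and 87.5 CPM in SOD1-G93A Lepob/+. Its slope with the score was 0.55 ± 0.16 (adjusted p = 0.0164), and without SOD1-G93A 3 it was 0.37 with an adjusted p of 0.15 by edgeR. Luc7l2 was 144 ± 7.11 CPM in WT, 165 ± 21.8 in Lepob/+, 171 ± 16.9 in SOD1-G93A and 146 ± 27.8 in SOD1-G93A Lepob/+ (mean ± SD, n = 4), with no call. Luc7l was at 33.1 CPM in SOD1-G93A 1 and 28.1 CPM in SOD1-G93A Lepob/+ 3 and at 46.8 to 79.1 CPM in the other 14 libraries. The SOD1-G93A 1 library was high in Luc7l3 (126 CPM), and SOD1-G93A Lepob/+ 3 was at 87.6 CPM of Luc7l3 and 127 CPM of Luc7l2. Snrpc (U1-C) had a slope of 0.08 ± 0.11.

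The 3′ splice site is read by U2AF. U2af2, which binds the polypyrimidine tract, was 162 to 189.8 CPM in the rich and 120.4 to 154 CPM in the poor libraries and rose with the score (0.44 ± 0.08, adjusted p = 0.000959). U2af1, which reads the terminal AG, rose less (0.28 ± 0.09, adjusted p = 0.0233), with ranges that overlapped. U2af1l4, a U2af1 paralog, stayed at 5.59 to 11.9 CPM with a slope of −0.09 ± 0.20. Its gene overlaps Psenen on the other strand, which had 400.1% of its counts, and a same-strand gene model (Gm49396) with 191%, and the strand setting of the counting is not given in the sources used here, so its level is uncertain.

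The U2 snRNP proteins held the largest rise among the called members, that of Sf3b1, the branch point clamp and a frequent target of mutation in blood cancers. Sf3b1 was 307, 278, 191 and 217 CPM in WT, 228, 218, 433 and 282 in Lepob/+, 409.7, 391, 221 and 363 in SOD1-G93A, and 208, 219, 209.7 and 225 in SOD1-G93A Lepob/+. Only Lepob/+ 4, the muscle-rich library, was a poor library at the level of a rich one. The slope was 0.69 ± 0.09 (adjusted p = 6.8e-05), and the interaction was −0.91 ± 0.34 (adjusted p = 0.564, both by edgeR). Sf3b3 was 119.9 to 158 CPM in the rich libraries and 86.0 to 109.5 in the poor libraries (0.57 ± 0.07, adjusted p = 4.73e-05). Sf3a1 showed the same split, with 61.98 to 75.8 and 43.4 to 54.0 CPM (0.44 ± 0.06, adjusted p = 0.000257). Sf3a2 (0.42), Sf3a3 (0.28) and Sf3b4 (0.24) were also called. Sf3b2, the highest of the group per kilobase, was not (0.16 ± 0.07, adjusted p = 0.0845). Sf3b3 overlaps the opposite-strand gene Cog4, whose counts came to 74.3% of its own, and Sf3a2 overlaps Plekhj1 (51.2%).

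In the Sm ring, the heptamer of proteins around each snRNA, Snrpg, Snrpe and Snrpd1 rose with the score (0.54, 0.47 and 0.32; adjusted p 0.0104, 0.0113 and 0.0309 by edgeR). Snrpb, the highest of them, was not called (0.06 ± 0.13). Snrpn, the imprinted paralog of Snrpb known from brain and heart, was the only member that fell. It was 15.5, 13.4, 26.9 and 21.4 CPM in WT, 16.4, 19.97, 14.4 and 40.4 in Lepob/+, 15.03, 14.4, 22.7 and 13.3 in SOD1-G93A, and 22.0, 17.2, 22.3 and 21.7 in SOD1-G93A Lepob/+. The 6 rich libraries (13.3 to 15.5) lay below all poor ones (16.4 to 40.4), and the muscle-rich Lepob/+ 4 was the highest. The slope was −0.71 ± 0.20 (adjusted p = 0.0155), and −0.59 without Lepob/+ 4 (adjusted p = 0.0015). The call was lost without Lepob/+ 3 (adjusted p = 0.0692), without SOD1-G93A 3 (adjusted p = 0.0619) and when replicate number entered as a block (adjusted p = 0.0682, all by edgeR). Snrpf had a difference of −0.29 ± 0.16 in SOD1-G93A Lepob/+ against Lepob/+ (adjusted p = 0.631).

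Of the Prpf factors, Prpf38a, a protein needed to activate the assembled spliceosome, had the smallest p in both comparisons with WT. It was 18.4, 21.9, 15.4 and 15.9 CPM in WT, 20.7, 22.9, 24.3 and 23.4 in Lepob/+, 24.0, 27.2, 21.6 and 25.4 in SOD1-G93A, and 17.8, 21.2, 21.3 and 21.7 in SOD1-G93A Lepob/+. Only WT 2 reached into the range of either single mutant. The difference was 0.46 ± 0.13 for SOD1-G93A and 0.35 ± 0.13 for Lepob/+ (adjusted p 0.998 and 1 by edgeR), with an interaction of −0.61 ± 0.18 (adjusted p = 0.564). Its slope with the score was 0.23 ± 0.09 (adjusted p = 0.0578). Prpf39, a U1-associated protein, was 57.8 to 79.0 CPM in the rich and 41.4 to 53.9 CPM in the poor libraries (0.44 ± 0.07, adjusted p = 0.000492). Its difference was 0.45 ± 0.16 in SOD1-G93A against WT and −0.53 ± 0.16 in the double mutant against SOD1-G93A (adjusted p 0.998 and 0.261 by edgeR). For the latter, limma voom gave an adjusted p of 0.00486, DESeq2 on all libraries 0.0544 and DESeq2 on the compared genotypes 0.025, and edgeR with the score gave −0.19 ± 0.10 (adjusted p = 1). Prpf39 overlaps Fkbp3 on the other strand (63.8% of its counts). Prpf8 rose (0.24 ± 0.08, adjusted p = 0.0452), and Prpf3 did not pass (0.21 ± 0.12, adjusted p = 0.187).

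Prpf19, the ubiquitin ligase of the spliceosome, was 244 CPM in the muscle-rich Lepob/+ 4 and 85.2 to 104 CPM in the other 15 libraries. Its slope with the score was −0.20 and was not called (adjusted p = 0.539 by edgeR); it was −0.09 without Lepob/+ 3 and −0.029 without Lepob/+ 4. Its Lepob/+ against WT difference of 0.48 ± 0.26 was −0.021 without that library, so 1 library made it. Lepob/+ 4 was also the highest of its genotype for Prpf6 (89.0 CPM against 78.9 to 88.2), a tri-snRNP bridge protein, whose difference of 0.13 ± 0.08 was not called, and which overlaps Zfp512b (104% of its counts). Prpf40b, a U1-associated factor, had a slope of −0.17 ± 0.11 and was highest in Lepob/+ 4 at 45.0 CPM.

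Among the kinases, Clk4 differed most between genotypes. It was 69.2, 70.6, 61.1 and 57.5 CPM in WT, 67.6, 63.8, 83.3 and 74.0 in Lepob/+, 78.1, 84.1, 70.5 and 78.2 in SOD1-G93A, and 56.7, 63.8, 57.1 and 64.7 in SOD1-G93A Lepob/+. Among the poor libraries, carriers of the transgene differed from non-carriers by −0.05 in mean log2 CPM, with overlap. The double mutant libraries overlapped WT and lay below all 4 SOD1-G93A libraries. How many of all genes split in this way is not given here. The difference was −0.36 ± 0.11 (adjusted p = 0.261 by edgeR, 0.0358 by DESeq2 on all libraries) and −0.19 ± 0.09 with the lymph node score in the edgeR model (adjusted p = 1), and it was −0.25 ± 0.11 against Lepob/+ (adjusted p = 0.602 by edgeR). The interaction was −0.52 ± 0.15 (adjusted p = 0.564). Clk2 was 53.1 to 62.9 CPM in the rich and 38.3 to 47.1 CPM in the poor libraries (0.38 ± 0.07, adjusted p = 0.0014), Clk4 rose with the score by 0.23 ± 0.06 (adjusted p = 0.0155), and Prpf4b, a Clk-like kinase, by 0.36 (adjusted p = 0.00452). Clk1 (0.23 ± 0.08, adjusted p = 0.0503) and Clk3 (0.15 ± 0.08, adjusted p = 0.212) were not called.

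The X-linked hnRNP Rbmx was 50.1, 46.9, 39.3 and 43.1 CPM in WT, 52.4, 41.3, 52.6 and 46.5 in Lepob/+, 61.4, 69.9, 42.7 and 64.2 in SOD1-G93A, and 46.9, 45.8, 38.8 and 43.7 in SOD1-G93A Lepob/+. The 3 rich SOD1-G93A libraries were above all others, whereas SOD1-G93A 3 was within the WT range. The lowest value, 38.8 CPM, was that of SOD1-G93A Lepob/+ 3, the library with no Xist count and with Y-linked counts, and WT 3 was close to it at 39.3 CPM. The X-linked Hnrnph2 and Rbmx2 were at 80.2 and 4.24 CPM in SOD1-G93A Lepob/+ 3. The other double mutant libraries held 76.0 to 89.1 and 4.14 to 5.40 CPM. For Rbmx, the difference of SOD1-G93A from WT was 0.41 ± 0.14 and that of the double mutant from SOD1-G93A −0.44 ± 0.14 (adjusted p 0.998 and 0.261 by edgeR). The latter had an adjusted p of 0.005 by limma voom, 0.0757 by DESeq2 on all libraries and 0.0923 by DESeq2 on the compared genotypes, and was −0.18 ± 0.12 with the score in the edgeR model (adjusted p = 1). Leaving out each library in turn, the Rbmx difference of the double mutant from SOD1-G93A ranged from −0.56 to −0.35 by edgeR. Rbmx (0.34), Rbmx2 (0.38) and the retrocopy Rbmxl1 (0.38) rose with the score (adjusted p 0.0101, 0.0362 and 0.000752 by edgeR).

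**Figure D5:**
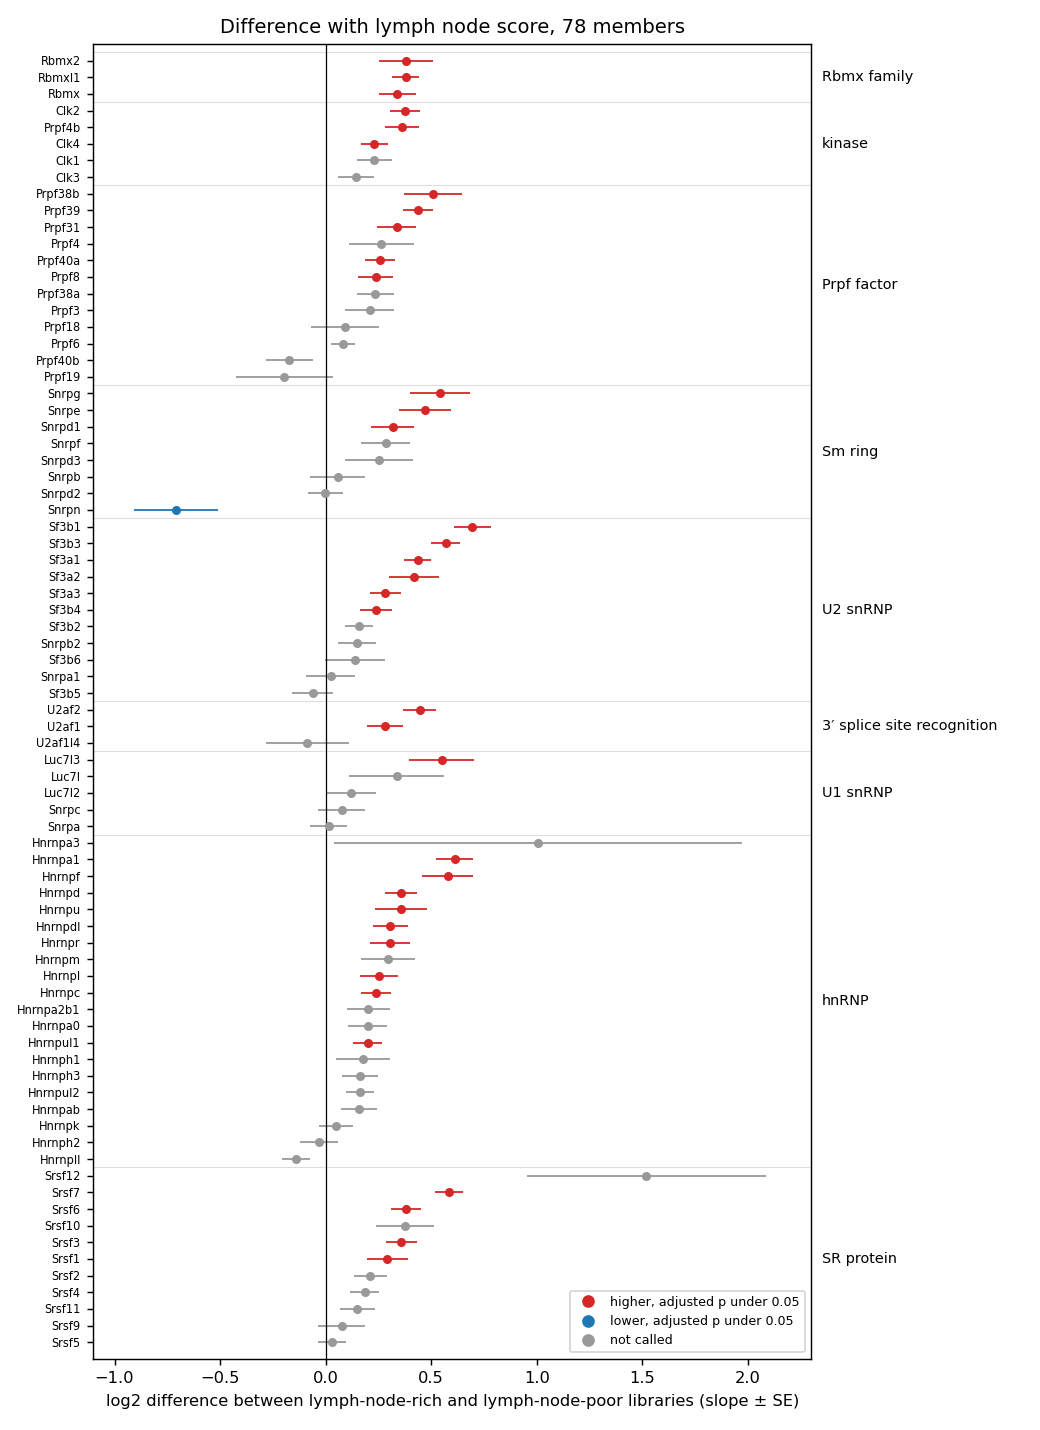
Slope with the lymph node score for each tested member (rows, by role), as the log2 difference between rich and poor libraries (horizontal axis, points) ± SE (bars); red and blue mark members called higher and lower, grey those not called. Slopes of 70 of 78 members lie above 0, Sf3b1 has the largest called slope at 0.69, and Snrpn is the only called member below 0 at −0.71.

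Within the rich and within the poor libraries, carriers of the transgene could be set beside non-carriers, as a description with no test. Lymphoid content still varied in the rich set. The summed T cell list was 1433, 2183 and 1265 CPM in SOD1-G93A 1, 2 and 4, and 1449, 1085 and 1622 in WT 1, WT 2 and Lepob/+ 3. Among the 6 rich libraries, 3 SOD1-G93A libraries were compared with WT 1, WT 2 and Lepob/+ 3: the median difference was 0.11 with 68 of 78 members higher, against 0.06 for all genes. In 14 members all 3 carriers were above all 3 non-carriers and in none all below, where 7.23% and 4.40% of all genes did so. The 14 included Luc7l3 (0.61), Rbmx (0.38), Sf3b6 (0.38), Rbmx2 (0.37), Prpf39 (0.30) and Clk1 (0.16). Among the 10 poor libraries, 5 carriers and 5 non-carriers differed by a median of 0.00 (40 of 78 members higher). No member separated them in either direction (0.314% and 0.279% of all genes). The rich carriers carried no ob allele and the poor carriers were 4 double mutants and 1 SOD1-G93A library, so transgene, ob allele and lymph node content cannot be told apart here.

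Other splicing genes outside these families are set beside the 17.7% of all genes that rose and 14.2% that fell with the score. Of 49 other spliceosome subunits 20 rose and none fell (median slope 0.25), led by Ddx46, a U2-associated helicase (0.61 ± 0.07, adjusted p = 1.96e-05), and Dhx16 (0.46 ± 0.06, adjusted p = 0.000134). Of 38 other splicing regulators 15 rose and 3 fell (median 0.23), among them Rbfox2, which fell (−0.67 ± 0.10, adjusted p = 0.00019), and Mbnl3, which rose (1.49 ± 0.23, adjusted p = 0.000314). Srpk1, the cytoplasmic kinase of SR proteins, rose (0.82 ± 0.07, adjusted p = 1.27e-06) as the only called gene of 6 in its list, whose median was 0.03 with 3 genes on either side of 0. Srpk3, a muscle kinase, was not called (3.37 ± 1.32, adjusted p = 0.0674 by edgeR). Of 13 snRNP assembly genes only 3 were called, near the share of all genes and with a list median of 0.05, Tgs1 (0.35) and Gemin4 (0.49) first. Of 5 exon junction complex genes 2 rose (list median 0.19), Casc3 (0.35) and Eif4a3 (0.24). The adjusted p of these named genes were 0.00572, 0.00845, 0.00107 and 0.00918 by edgeR. In the genotype comparisons none of these genes was called by edgeR, and 10 of the 49 other spliceosome subunits and 7 of the 38 other regulators were lower in SOD1-G93A Lepob/+ than in SOD1-G93A at an unadjusted p below 0.05, where 12.3% of all genes were.

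The annotation gives many members more than productive transcripts. In GENCODE M21, 53.8% of the 78 tested members have a transcript marked for nonsense-mediated decay, against 26.3% of the 15522 protein-coding genes tested, and 73.1% have a retained-intron transcript, against 54.0%. Counts per gene merge these forms. At least 1 other gene overlapped 36 of the 79 members, and for 13 such a partner held at least 10% as many counts as the member.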

How the data were processed

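The authors deposited raw counts per Ensembl gene for 16 libraries. Per the submitters' processing notes and the study's methods, reads were filtered, aligned to mm10 with HISAT2 2.1.0, and uniquely mapped reads counted with featureCounts 2.0.2; DESeq2 is also named. The annotation release and strand setting are not given in the sources used here, and the kit differs between the labels (NEBNext Ultra) and the methods (a stranded TruSeq kit). Authors' normalized values and comparisons were not used.

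Symbols came from GENCODE M21. Genes were kept with edgeR's filter (minimum count 10, minimum total 15), leaving 19736, and scaled by TMM. The main test was edgeR 4.0.16 quasi-likelihood in R 4.3.3 over all 16 libraries and 4 genotype means, with Benjamini-Hochberg adjustment over all genes and a threshold of 0.05; the lymph node score was tested in the same model with genotypes kept. limma 3.58.1 and DESeq2 1.42.0 were alternatives. Errors beside a log2 value are standard errors. The fit was tested on simulated data.

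Named members were, per comparison, the 4 with the smallest p; for the score, the 6 with the smallest p among positive and 4 among negative slopes; the highest and lowest of each family per length; all Luc7l, Clk, U2af and Rbmx genes; and Srsf3. Other called members are named for their counts. Of the other splicing lists, the 2 genes with the smallest p were named. The member rule uses only symbols, but the families it names and the gene lists were chosen with earlier results of these data known. Depth was 36795376 to 61886313 counts, and fits cover counting error and the spread between libraries.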

Additional observations from a re-analysis of the deposited data

Results flagged for a closer look

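Of 192 sets of 4 libraries of 1 genotype, 16 (8.33%) held a library far from the other 3. Its gap to the nearest of them, over the range, was above Dixon's critical value. The sets were levels of named members and means of roles, not of all members. Many named members were picked by a small p in these data, so the share cannot be set against a chance rate. Lepob/+ 3, the only lymph-node-rich library of its genotype, was high for Srsf7 (89.6 CPM, the others 62.9 to 64.4), Sf3a1 (68.7, the others 50.1 to 51.2), Prpf39 (66.4, the others 47.6 to 50.5), Rbmxl1 (33.3, the others 24.7 to 25.7) and the mean log2 CPM of the Rbmx genes (4.41, the others 4.10 to 4.14). The muscle-rich Lepob/+ 4 was high for Prpf19 (244 CPM, the others 85.2 to 103) and low for Srsf5 (277 CPM, the others 297).

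SOD1-G93A Lepob/+ 3, the library with Y-linked counts, was low for Luc7l (28.1 CPM, the others 59.2 to 64.5) and high for Srsf12 (0.204 CPM, the others 0.111 to 0.125). SOD1-G93A Lepob/+ 2 was high for Prpf40b (39.2 CPM, the others 32.7 to 33.2) and Rbmx2 (5.40 CPM, the others 4.14 to 4.24), and low for Prpf19 (85.7 CPM, the others 101 to 102) and Snrpn (17.2 CPM, the others 21.7 to 22.3). SOD1-G93A Lepob/+ 1 was low for Prpf38a (17.8 CPM, the others 21.2 to 21.7). WT 1 was high for Rbmx2 (6.07 CPM, the others 4.83 to 4.94), and WT 2 for Luc7l2 (155 CPM, the others 139.6 to 142). The causes were not tested.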

How the results depend on the processing

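In SOD1-G93A Lepob/+ against SOD1-G93A the count of called members moved from 0 to 36 with limma voom and quality weights (6254 of all 19736 genes). It was 2 with DESeq2 on all libraries (595 of 19736) and 7 with DESeq2 on the compared genotypes (1546 of 18506). The median moved from −0.22 to −0.016 with the lymph node score as a covariate, and the cause of these changes was not tested. In Lepob/+ against WT the median was −0.05 with limma voom, and Prpf19 ranged from −0.021 without Lepob/+ 4, a reversal, to 0.64 without Lepob/+ 2; it was also −0.021 without Lepob/+ 4 and SOD1-G93A Lepob/+ 3.

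Leaving out each library in turn, the members called with the score ranged from 18 (without SOD1-G93A 3) to 51, the genotype comparisons kept 0 calls, and the medians ranged from −0.02 to 0.09 (Lepob/+ against WT), 0.12 to 0.25 (SOD1-G93A against WT), −0.29 to −0.15 (SOD1-G93A Lepob/+ against SOD1-G93A), −0.10 to −0.02 (against Lepob/+) and −0.31 to −0.17 (interaction). With the score, 30 members were called with no filter and 41 with the T cell list as the score. DESeq2 called 46 (7609 of all 19736 genes) and limma voom 49 (8225 genes), where the main fit called 6299 genes. Counts over all genes in the other settings are not given here, so those member counts have no background beside them.

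The labels number the replicates in each genotype. Deviations of the 24 same-numbered pairs correlated at −0.69 to 0.52 (median −0.03), 5 of them above 0.1, so the numbers were not taken to pair libraries. With the replicate number as a block, 0 members were called between genotypes and 34 with the score, again without a count over all genes. Limits are 4 libraries per genotype and lymph node content that is unevenly spread over them. Srsf12, at 0 to 1.31 CPM, is limited by depth.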
